A study of Mus musculus with 20 samples.

Results

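The vessels that grow into a wounded nerve were compared with the vessels of uninjured nerve, in endothelial cells sorted from mouse sciatic nerve. The 7 dpi libraries came from the bridge, the tissue at the lesion site, 7 days after injury (dpi, days post-injury), and the intact libraries from uninjured nerves. Both sets were chosen by their labels: 5 libraries at 7 dpi and 5 of intact nerve, 10 of the 20 libraries of the series. All 10 came from adult mice with the wild-type Plxnd1 label that carry Cdh5(PAC)-CreERT2, a tamoxifen-inducible Cre driven by regulatory sequence of the endothelial cadherin gene, and R26-TomatoLSL, a red reporter that Cre switches on. The labels name the lesion a crush, while the design text speaks of a lesion site with a bridge. Nerves were pooled, and the number of animals in a library was not stated. The p-values therefore cover the variation among pooled libraries, and some of that may be technical. The 4 libraries of the bridge at 14 dpi entered the same model, and 3 further 7 dpi libraries sorted on another reporter, Kdr-Cherry, from mice labelled Plxnd1 WT gave a second level for each gene. They are another table, normalized on its own, and no test was made across the tables. No intact nerve was sorted on Kdr-Cherry. A low level in those libraries therefore does not tell whether the endothelium of intact nerve expressed a gene. All cells were sorted by flow cytometry as reporter-positive and CD45-negative, CD45 being a marker of blood leukocytes.

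Endothelial cells line blood vessels, and in peripheral nerve those of the endoneurium form a tight barrier. A growing vessel has to build proteins and membranes, move into matrix, respond to clotting and inflammatory signals and change what it carries between blood and tissue. Ribosomes are assembled in the nucleolus, sterols are made by a chain of enzymes whose genes are switched on when cell cholesterol is low, and many tissues run a daily clock of transcription factors. The results below follow these roles, from the making of proteins to the exchange with blood.

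The 10 libraries held 20027327 to 32966633 counts. On the first principal component, 52.7% of the variance over 10010 genes, the intact libraries lay between -51.0 and -32.7, those at 7 dpi between 35.2 and 55.5 and those at 14 dpi between -2.90 and 7.09. The second, 18.8%, separated the 2 batches of the labels, 1133 and 1292. Each group had libraries of both batches, and the model held batch as a term. Among endothelial markers Pecam1, the platelet endothelial adhesion molecule, was at a mean of 1383 CPM (counts per 1000000 of effective library size) in intact nerve and 2292 CPM at 7 dpi, and Cdh5 at 280.0 and 528 CPM. Of all 20 pan-endothelial markers 11 rose and 3 fell, and their sums overlapped, with 7791 to 19376 CPM in intact libraries and 12427 to 18689 CPM at 7 dpi. Markers of other cells were also found. The 8 perineurial markers, genes of the sheath around nerve bundles, summed to 5049.5 to 8116 CPM in intact libraries and 568 to 1422 CPM at 7 dpi. All 8 fell, and in the Kdr-Cherry libraries they summed to 252 to 316 CPM. The glucose carrier Slc2a1 is among these 8, and which cells held its RNA was not tested. Of 16 fibroblast markers 7 rose and 4 fell, with sums of 14281 to 23805 CPM in intact nerve, 5396 to 21886 CPM at 7 dpi and 1718 to 3097 CPM in the Kdr-Cherry libraries. Of 13 mural cell markers 7 fell, and of 13 Schwann cell markers 8 fell and 1 rose. None of the perineurial, fibroblast, mural or Schwann markers was at 0 in all 10 libraries, and in bulk RNA fewer cells of a type and less RNA per cell cannot be told apart. Of 8 lymphatic markers 5 fell, of 5 red cell markers 5 fell, and of 5 muscle and fat markers 1 fell. The 1 other leukocyte marker that could be tested fell. Macrophage markers, 1 of 13 called higher, summed to 18.6 to 22.8 CPM in uninjured nerve and 13.4 to 374 CPM at 7 dpi, the highest sum being that of the 7 dpi library numbered replicate 4. The intact library numbered replicate 5 had the lowest sum of pan-endothelial markers, 7791 CPM, and a normalization factor of 1.32 against 0.937 to 1.05 in the other 9 libraries.

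Of 20409 genes tested with edgeR's quasi-likelihood test, 3202 (15.7%) were higher and 3333 (16.3%) lower at 7 dpi when Benjamini-Hochberg adjustment was held under 0.05. The median log2 fold change of all tested genes was -0.10. At least 2-fold changes were found for 1354 rises (6.63%) and 1885 falls (9.24%). Among the 10306 better expressed genes (mean log2 CPM 3 or higher) the shares were 24.9% higher and 21.6% lower, so that well-expressed families are best read against these. Several lists below, integrins and amino acid carriers among them, lay near these shares, and their counts are not read as results about the list. Every 7 dpi library was above every intact library for 2232 genes (10.9%) and below for 2168 (10.6%). Gene coordinates are those of GRCm38. Fold changes below are log2 values of 7 dpi over intact nerve, and levels are CPM with the standard deviation over 5 libraries. The standard errors of the fold changes were back-calculated from the fold change and the F statistic of its test. They are approximate, most of all for genes with few reads. Falls were more frequent than rises among long non-coding RNAs: of 942 lincRNAs tested 43 rose and 123 fell, while 3027 of 15334 protein-coding genes rose and 2937 fell.

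The genes that gained most RNA included several of the cytoskeleton and matrix. Those that lost most included several with almost no RNA in the Kdr-Cherry libraries, which are all of 7 dpi. The largest gains in mean CPM, in order, were Actb, Sparc, Col1a1, Col4a1, Vim, Col3a1, Eef1a1, Aplnr, Plvap and Igfbp7. Aplnr, the receptor for apelin in growing vessels, stood at 245, 339, 221, 191.4 and 121 CPM in the intact libraries and 2258, 1471, 2590.4, 2005 and 1756 CPM at 7 dpi. All 5 libraries at 7 dpi lay above all 5 of intact nerve (log2 fold change 3.20 ± 0.23, adjusted p = 2.87e-08). The largest losses were of Dcn, Igfbp6, Sfrp5, Cldn5, Fos, Smoc2, Gsn, Slc2a1, Cst3 and Gas6. Mean levels in the Kdr-Cherry libraries were 2.91 CPM for Sfrp5, 5.55 CPM for Smoc2 and 10.9 CPM for Igfbp6, against 797 CPM for the tight junction gene Cldn5. With the mean of the perineurial markers as a covariate, the log2 fold change of Cldn5 was -2.25 (without it, -2.33), while those of Sfrp5 and Smoc2 were 0.17 and 1.44 (without it, -3.13 and -1.57).

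Genes were ranked by fold among those with an average log2 CPM of 3 or more over the 14 Tomato libraries. The 12 largest rises were Chga, Cd276, Ctss, Mfap4, AA467197, Mest, Mmp12, Lcp2, Pclaf, Ccnb1, Birc5 and Nox4. The largest falls included those of Car4, Slco1a4, Mybph, Tnfrsf19, Ptgds, Slco1c1, Degs2, Mfsd2a, Adora1, Aldh1a1 and Hlf. Ctss and Mmp12 were highest in 1 library at 14 dpi, replicate 3, at 188 and 115 CPM. At 7 dpi they had 40.4 and 26.2 CPM in replicate 4, and at most 2.59 and 1.42 CPM in the other libraries. Their level was therefore low in most of the libraries compared. Lcp2 (chr11:34046920-34092295, plus strand), an adaptor of antigen receptor signalling best known in T cells and platelets, stood at 0.514, 0.826, 0, 0.612 and 1.48 CPM in the intact libraries and 23.7, 25.4, 37.3, 32.9 and 35.5 CPM at 7 dpi. It was raised in all 5 libraries at 7 dpi and had 37.0 CPM in the Kdr-Cherry libraries (log2 fold change 5.52 ± 0.46, adjusted p = 1.4e-07). Mmp12 (chr9:7344397-7369499, plus strand), a macrophage elastase, had 0, 0.0516, 0, 0.306 and 0.428 CPM in the intact libraries and 0, 0.590, 1.42, 26.2 and 0.756 CPM at 7 dpi, so its rise (log2 fold change 5.63 ± 1.94, adjusted p = 0.0445) lay mostly in replicate 4, the library with the most macrophage RNA, and its groups overlapped. Its call was lost when any 1 of 8 of the 10 libraries was left out, among them that library, without which the log2 fold change was 4.78. The part of macrophages in it was not tested. Tnfrsf19 (chr14:60963875-61046490, minus strand), a receptor of the tumour necrosis factor family, stood at 108, 97.9, 84.0, 77.7 and 56.1 CPM in the intact libraries and 1.48, 2.71, 5.21, 1.46 and 1.13 CPM at 7 dpi. Every library at 7 dpi was below every intact one (log2 fold change -5.22 ± 0.29, adjusted p = 2.06e-09), and the log2 fold change with the perineurial covariate was -6.59. Adora1, the adenosine A1 receptor, fell from 81.6 ± 33.6 CPM in intact nerve to 2.67 ± 1.40 CPM at 7 dpi (log2 fold change -4.87 ± 0.34, adjusted p = 2.11e-08). Degs2, a sphingolipid hydroxylase, fell from 134 ± 33.1 CPM in intact nerve to 4.47 ± 3.21 CPM at 7 dpi (log2 fold change -5.06 ± 0.36, adjusted p = 2.6e-08). Mybph, a muscle myosin-binding protein, fell from 66.6 to 1.70 CPM (log2 fold change -5.31 ± 0.52, adjusted p = 8.56e-07) and its log2 fold change with the perineurial covariate was -1.27.

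**Figure D1:**
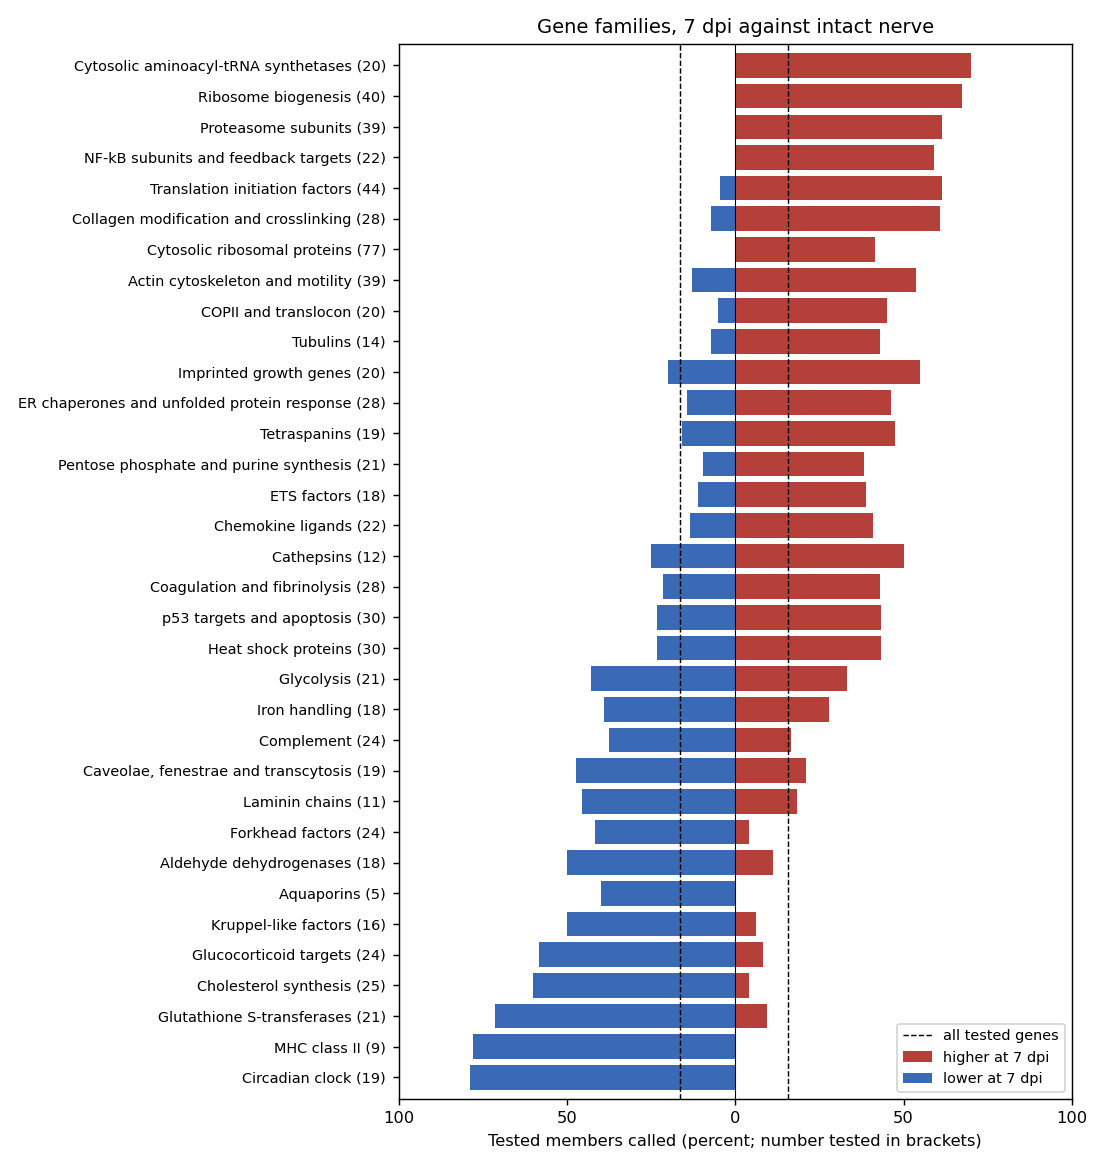
Share of tested members called higher (right) and lower (left) at 7 dpi than in intact nerve, in percent, for 34 gene families; the dashed lines mark the shares over all 20409 tested genes, 15.7% higher and 16.3% lower. Of the families shown, tRNA synthetases and ribosome biogenesis reach furthest to the right, and clock, MHC class II and glutathione transferase genes furthest to the left.

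Genes that make proteins rose in 3 lists with few falls. Of 40 ribosome biogenesis genes, which make and assemble ribosomes in the nucleolus, 27 rose and 0 fell, with a median log2 fold change of 0.55. Translation initiation factors gave 27 rises and 2 falls of 44, and cytosolic aminoacyl-tRNA synthetases, which load amino acids on transfer RNA, 14 rises and 0 falls of 20. With the mean of the perineurial markers as a covariate, 0 rises were called in each of the 3 lists (medians 0.56, 0.54 and 0.68). With the mean of the fibroblast markers instead, 19, 9 and 5 rises were called in the same order (medians 0.54, 0.39 and 0.44). Npm1 (chr11:33152287-33163206, minus strand), a nucleolar chaperone of ribosome assembly, stood at 287, 309, 297, 285 and 177 CPM in the intact libraries and 635, 643, 671, 679 and 590.2 CPM at 7 dpi. The groups did not overlap (log2 fold change 1.26 ± 0.15, adjusted p = 7.15e-06). Nhp2, a core protein of the particles that modify ribosomal RNA, went from 42.5 ± 11.46 CPM in intact nerve to 117 ± 12.6 CPM at 7 dpi (log2 fold change 1.45 ± 0.19, adjusted p = 1.71e-05). The glycyl-tRNA synthetase Gars went from 101.03 ± 16.6 CPM in intact nerve to 208 ± 17.4 CPM at 7 dpi (log2 fold change 1.04 ± 0.14, adjusted p = 2.27e-05). Among initiation factors the helicase Eif4a1 rose by 0.99 ± 0.14 and its paralogue Eif4a2 fell by 0.84 ± 0.13 on the log2 scale, so the 2 helicases moved in opposite directions.

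Of 77 ribosomal protein genes, 32 rose and 0 fell, with a median of 0.54. With the fibroblast covariate 9 rises were called (median 0.5), and with the perineurial covariate 0 (median 0.7). The largest rises were those of Rps2 (log2 fold change 1.32 ± 0.18, adjusted p = 3.07e-05), Rplp0 (log2 fold change 1.2 ± 0.19, adjusted p = 0.000125), Rpl13a and Rpl10a. Their summed level was 15175 to 37026 CPM in uninjured nerve and 37895 to 44980.0 CPM at 7 dpi, with the lowest intact value in replicate 5. The highest intact value was in replicate 4. Without replicate 4, 65 genes were called higher (median 0.76), and without replicate 5, 27 (median 0.40), and without 7 dpi replicate 1 21. Ribosomal protein genes have many processed pseudogenes, so part of their counts may have been split or lost in counting. Subunits of the mitochondrial ribosome showed 20 rises and 1 fall of 77 (median 0.28), a share of 26.0% higher that is close to the 24.9% of the better expressed genes. Without intact replicate 4 there were 44 rises (median 0.41), and without intact replicate 5 the median was 0.18. The respiratory chain, whose mitochondrial subunits that ribosome makes, had few calls: of 94 nuclear-coded subunits and assembly factors 7 rose and 5 fell (median 0.07), and of 7 mitochondrially coded genes 2 fell, mt-Nd2 by 1.17 ± 0.23 on the log2 scale. None of the assembly factors was called. Without intact replicate 4, 21 genes of this list were called higher (median 0.27), and without intact replicate 5, 8 lower (median -0.03).

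Subunits of the proteasome, which degrades tagged proteins, also rose. Of 39 proteasome subunits, 24 rose and 0 fell (median 0.44), led by Psmd8 (log2 fold change 0.86 ± 0.15, adjusted p = 0.000341) and Psmc4. Proteasome rises called were 11 with the fibroblast covariate (median 0.34) and 0 with the perineurial covariate (median 0.69). In batch 1133 alone 0 were called (median 0.52). Among heat shock genes, subunits of the cytosolic chaperonin that folds actin and tubulin rose, Cct2 from 130.7 ± 17.5 CPM in intact nerve to 281 ± 30.8 CPM at 7 dpi (log2 fold change 1.10 ± 0.12, adjusted p = 3.86e-06) and Tcp1 by 0.85 ± 0.13. The small heat shock protein Hspb1 fell from 569.7 ± 105 CPM in intact nerve to 184 ± 21.9 CPM at 7 dpi (log2 fold change -1.62 ± 0.15, adjusted p = 5.11e-07) and Cryab by 2.16 ± 0.22. Hspb8 also fell and Hspb6 was not called, and genes of the Hsp70 and DnaJ kinds were among both the rises and the falls. Of the 30 heat shock genes in all, 13 rose and 7 fell. Cryab stood at 29.3 CPM in the Kdr-Cherry libraries, against 43.9 CPM at 7 dpi, and its log2 fold change with the perineurial covariate was -0.75.

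In the endoplasmic reticulum several chaperones rose and a few stress genes fell. Of 28 genes 13 rose and 4 fell. Fkbp10 (chr11:100415697-100424824, plus strand), a collagen chaperone of the prolyl isomerase family, stood at 61.9, 109, 64.9, 83.3 and 62.2 CPM in the intact libraries and 358, 346, 379, 486 and 445 CPM at 7 dpi. Its groups did not overlap (log2 fold change 2.38 ± 0.19, adjusted p = 1.23e-07). Calreticulin, Calr, rose by 1.10 ± 0.17 and Pdia6, a disulfide isomerase, by 1.14 ± 0.17. Hspa5, the main chaperone of the unfolded protein response, had 914 ± 233.6 CPM in intact nerve beside 1155 ± 65.1 CPM at 7 dpi and was not called (log2 fold change 0.35 ± 0.15, adjusted p = 0.0946). Herpud1 fell by 0.89 ± 0.13 and Crebrf by 1.46 ± 0.17. Export and import machinery of the same compartment gave 9 rises and 1 fall of 20, with the translocon channel Sec61a1 up by 0.91 ± 0.16. The promoter element known as ERSE, searched on both strands, was in 8 of 23 promoters of these genes (34.8%) and in 0.167% of 13197 tested genes with a promoter window, and genes with it were among the rises (Calr, Pdia6, Hsp90b1), the falls (Dnajc3) and the genes not called (Hspa5).

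Most genes of collagen modification rose. Of 28 enzymes and helpers that hydroxylate, fold and crosslink collagen, 17 rose and 2 fell (median 0.82). With the fibroblast covariate 13 rises were called, and with the perineurial covariate 8. The crosslinking enzymes Loxl1 (log2 fold change 2.82 ± 0.35, adjusted p = 1.09e-05) and Lox (log2 fold change 2.01 ± 0.40, adjusted p = 0.00097) had means of 68.1 and 61.1 CPM at 7 dpi and 11.2 and 4.72 CPM in the Kdr-Cherry libraries, whereas Tll1, a protease of procollagen, had 32.6 and 42.3 CPM (log2 fold change 2.10 ± 0.28, adjusted p = 1.99e-05). Of 43 collagen chains 16 rose and 6 fell. Col18a1, a vessel basement membrane collagen, rose to 1823 CPM (log2 fold change 3.20 ± 0.24, adjusted p = 5.86e-08) with 2091 CPM in the Kdr-Cherry libraries, whereas Col1a1, the fibrillar collagen and a fibroblast marker, rose to 4043 CPM (log2 fold change 2.49 ± 0.34, adjusted p = 2.68e-05) with 415 CPM there. The basement membrane laminins moved both ways. Of 11 laminin chains 2 rose and 5 fell: Lamb1 went from 48.7 ± 26.7 CPM in intact nerve to 414 ± 67.9 CPM at 7 dpi (log2 fold change 3.14 ± 0.28, adjusted p = 3.78e-07). Lamc3 fell by 2.38 ± 0.27. Lamb3 (-3.22 ± 0.49) was at 0.0409 CPM in the Kdr-Cherry libraries and its log2 fold change turned to 1.33 with the perineurial covariate. Among 25 integrins, the receptors of this matrix, 6 rose and 6 fell. The fibronectin receptor subunit Itga5 went from 138 ± 39.9 CPM in intact nerve to 401 ± 63.1 CPM at 7 dpi (log2 fold change 1.55 ± 0.17, adjusted p = 3.38e-06). Itgb3 rose by 2.31 ± 0.21, and the laminin receptor subunit Itgb4, one of the perineurial markers, fell by 2.98 ± 0.24.

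Cytoskeleton genes mostly rose. Of 39 actin and motility genes 21 rose and 5 fell (median 0.49), and of 14 tubulins 6 rose and 1 fell. Actin and motility rises called were 17 with the fibroblast covariate and 4 with the perineurial covariate. Fscn1 (chr5:142960343-142973185, plus strand), fascin, which bundles actin in filopodia, stood at 42.7, 75.6, 44.3, 27.5 and 23.1 CPM in the intact libraries and 564, 365, 614, 539.8 and 380.1 CPM at 7 dpi. The lowest 7 dpi library was several times the highest intact one (log2 fold change 3.6 ± 0.24, adjusted p = 1.79e-08). Marcksl1, an actin-binding membrane protein, went from 18.7 ± 8.37 CPM in intact nerve to 201 ± 34.5 CPM at 7 dpi (log2 fold change 3.46 ± 0.24, adjusted p = 2.19e-08). Tubb6, a beta tubulin, went from 68.3 ± 16.6 CPM in intact nerve to 436 ± 48.8 CPM at 7 dpi (log2 fold change 2.69 ± 0.15, adjusted p = 1.44e-09). The falls included the myosin light chain Myl9 by 1.25 ± 0.16, zyxin (Zyx) by 0.77 ± 0.15 and Enah by 1.05 ± 0.20.

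**Figure D2:**
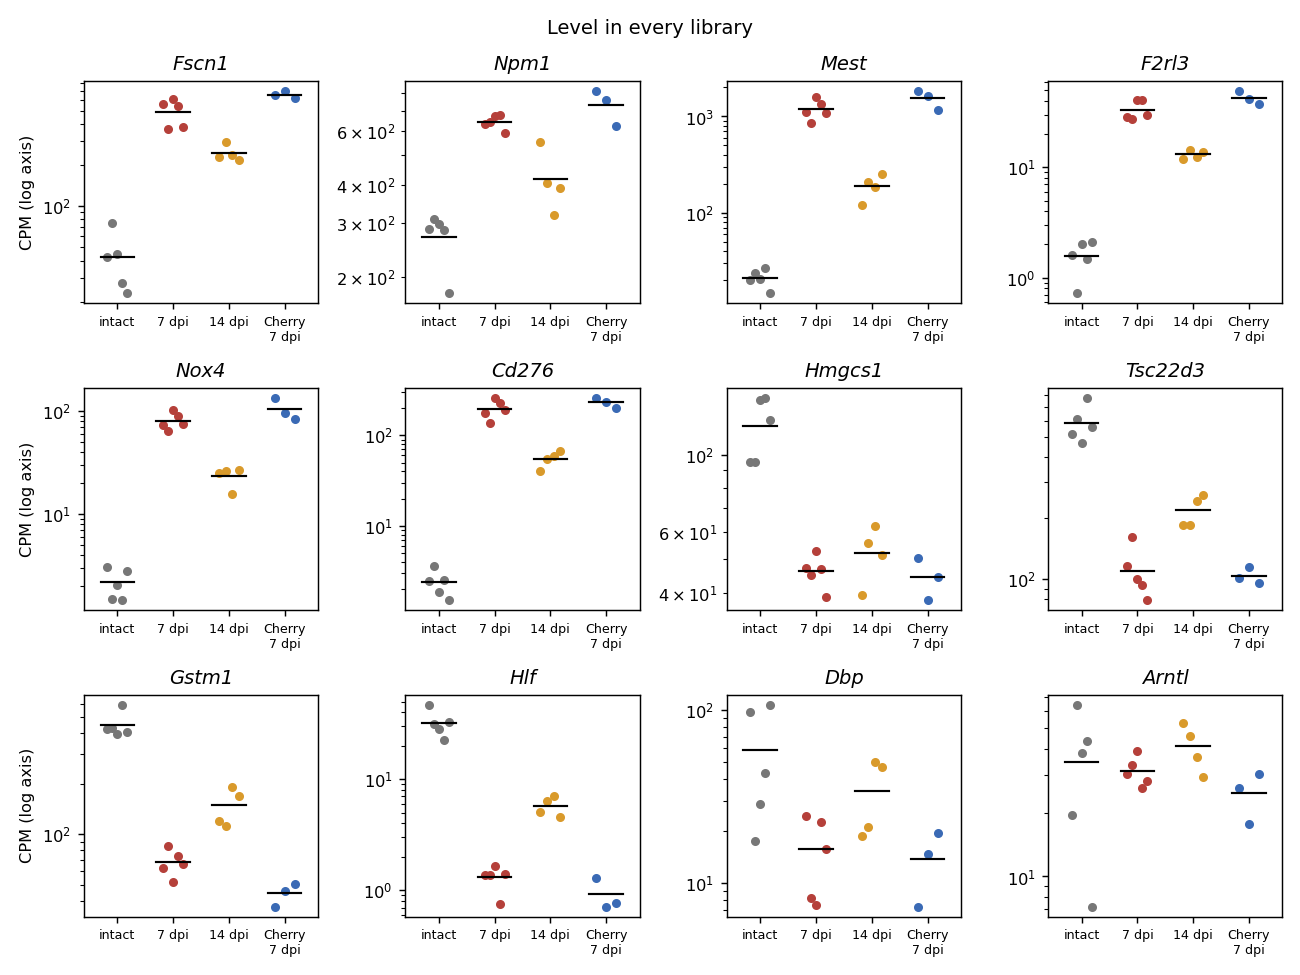
Level of 12 genes in every library, in CPM on a log axis, for intact nerve, 7 dpi and 14 dpi (Tomato libraries) and for the Kdr-Cherry libraries at 7 dpi, which were normalized separately; points are libraries and bars the group means. For Fscn1, Mest, F2rl3, Nox4, Hmgcs1, Hlf, Tsc22d3, Gstm1 and Cd276 no library at 7 dpi overlaps an intact one, while Dbp and Arntl overlap.

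Most genes of sterol synthesis fell. Of 25 genes, 15 fell and 1 rose (median -1.02, and -1.08 and -0.82 within batches 1133 and 1292). Hmgcs1 (chr13:119690446-119708260, plus strand), the enzyme that makes HMG-CoA, stood at 95.5, 95.3, 143, 145 and 126 CPM in the intact libraries and 47.2, 45.1, 52.7, 47.0 and 38.9 CPM at 7 dpi. The highest 7 dpi library stayed well below the lowest intact one (log2 fold change -1.38 ± 0.16, adjusted p = 3.85e-06). Msmo1 fell by 1.6 ± 0.15 and lanosterol synthase, Lss, by 1.86 ± 0.24. Mvd was the exception, up from 12.3 ± 4.13 CPM in intact nerve to 20.9 ± 3.68 CPM at 7 dpi (log2 fold change 0.77 ± 0.18, adjusted p = 0.00345). The Kdr-Cherry libraries held 44.5 CPM of Hmgcs1, beside a mean of 46.2 CPM in the Tomato libraries at 7 dpi. With the perineurial markers as a covariate the median of the list was -0.87 and 2 genes were called lower. With the fibroblast markers it was -0.96 and 12.

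The promoter of Hmgcs1 is shown because it holds the only match, among the 17 promoters of this list, to the sterol element spelled TCACNCCAC, which 1.42% of 13197 tested genes with a window of 250 bases before to 50 bases after a RefSeq start also held on either strand. The 250 bases before the start are printed (chr13:119690101-119690350, plus strand, RefSeq on GRCm38.p6), with the match in capitals.
Hmgcs1: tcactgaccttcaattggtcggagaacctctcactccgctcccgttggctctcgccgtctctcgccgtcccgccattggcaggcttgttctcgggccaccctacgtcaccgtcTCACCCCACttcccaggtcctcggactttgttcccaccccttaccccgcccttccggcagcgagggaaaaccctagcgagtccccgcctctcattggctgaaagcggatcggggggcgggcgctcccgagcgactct
A match is a description of these letters and not a binding site.

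Fatty acid synthesis and desaturation gave 3 rises and 6 falls of 23, with Elovl7, which lengthens fatty acids, down from 45.3 ± 13.7 CPM in intact nerve to 7.07 ± 4.11 CPM at 7 dpi (log2 fold change -2.78 ± 0.23, adjusted p = 1.34e-07). Fads1, a desaturase, fell by 0.97 ± 0.17 and Acsl4 rose by 1.25 ± 0.15. Fatty acid oxidation gave 3 rises and 5 falls of 25. Its first enzyme Cpt1a had 142 ± 20.7 CPM in intact nerve beside 146 ± 27.6 CPM at 7 dpi and was not called (log2 fold change 0.02 ± 0.17, adjusted p = 0.948). Ppargc1a, a coactivator of mitochondrial genes, fell from 57.6 to 7.67 CPM (log2 fold change -2.91 ± 0.30, adjusted p = 1.75e-06) and stood at 0.249 CPM in the Kdr-Cherry libraries.

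Glycolysis genes moved in both directions, 7 rises and 9 falls of 21. Ldha (chr7:46845839-46855627, plus strand), which makes lactate, stood at 431, 584, 412, 431 and 300.3 CPM in the intact libraries and 871, 1022, 906, 894 and 938 CPM at 7 dpi and did not overlap between groups (log2 fold change 1.11 ± 0.15, adjusted p = 3.41e-05). Pgk1 and the pyruvate kinase Pkm rose by 0.68 ± 0.12 and 0.64 ± 0.14. In the other direction the glucose carrier Slc2a1 fell by 2.71 ± 0.23, the lactate carrier Slc16a1 by 1.66 ± 0.31 and Ldhb by 1.90 ± 0.23. Slc2a1 is a perineurial marker here, and Slc16a1 and Ldhb had 31.9 and 20.4 CPM in the Kdr-Cherry libraries. With the perineurial covariate their log2 fold changes were -1.46, 0.93 and -0.25. Slc2a1 is itself part of that covariate, so its value there is in part corrected by its own level and does not tell which cells lost it. Aldoa and Tpi1 of the middle steps were also among the falls, and Gapdh and Pgam1 among the rises. Targets of the hypoxia factor HIF outside glycolysis gave 5 rises and 9 falls of 24: the membrane carbonic anhydrase Car9 rose from 0.167 to 2.69 CPM (log2 fold change 4.23 ± 0.58, adjusted p = 2.78e-05). Ndrg1 fell from 1588 ± 193 CPM in intact nerve to 433 ± 66.0 CPM at 7 dpi (log2 fold change -1.88 ± 0.17, adjusted p = 3.2e-07). Adm, with 48.5 ± 5.75 CPM in intact nerve beside 47.0 ± 6.04 CPM at 7 dpi, was not called (log2 fold change -0.04 ± 0.17, adjusted p = 0.9). The core of the HIF element, ACGTG on either strand, was in 14 of 21 glycolysis promoters (66.7%) and in 27.2% of those of all tested genes, and glycolysis genes with it were among the rises (Ldha, Pgk1, Gapdh) and the falls (Aldoa, Pfkfb3).

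Amino acid genes also moved both ways. Of 25 genes of the ATF4 stress programme and of serine, proline and one-carbon synthesis 8 rose and 7 fell. The 8 rises were enzymes of synthesis and of folate cycles, among them Psat1 of the serine pathway from 18.4 ± 4.13 CPM in intact nerve to 61.3 ± 6.93 CPM at 7 dpi (log2 fold change 1.73 ± 0.18, adjusted p = 1.4e-06) and Mthfd2 of the mitochondrial folate cycle from 3.84 ± 1.35 CPM in intact nerve to 17.1 ± 2.92 CPM at 7 dpi (log2 fold change 2.15 ± 0.23, adjusted p = 2.12e-06). Asparagine synthetase (Asns) rose by 1.40 ± 0.19 and Aldh18a1 of proline synthesis by 1.73 ± 0.19. The stress genes Chac1 and Nupr1 fell by 2.26 ± 0.34 and 1.36 ± 0.26, and Atf4 itself, at 323 ± 58.4 CPM in intact nerve beside 278 ± 43.4 CPM at 7 dpi, was not called (log2 fold change -0.23 ± 0.15, adjusted p = 0.272). Nupr1 turned to a log2 fold change of 0.51 with the perineurial covariate and had 14.7 CPM in the Kdr-Cherry libraries. Carriers of amino acids gave 7 rises and 7 falls of 28, 25.0% each way. These shares are near the 24.9% and 21.6% of the better expressed genes. Slc7a5 (chr8:121881150-121907694, minus strand), the carrier of large neutral amino acids at blood-tissue barriers, stood at 96.2, 98.3, 62.7, 90.6 and 68.2 CPM in the intact libraries and 8.79, 9.98, 9.45, 17.4 and 13.3 CPM at 7 dpi, with no overlap (log2 fold change -2.84 ± 0.21, adjusted p = 4.89e-08). The arginine carrier Slc7a1 fell from 100.4 ± 24.9 CPM in intact nerve to 25.9 ± 6.36 CPM at 7 dpi (log2 fold change -1.95 ± 0.16, adjusted p = 1.46e-07). Slc7a6 and Slc38a1 rose by 1.45 ± 0.18 and 2.79 ± 0.46.

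Nucleotide synthesis and the pentose phosphate pathway gave 8 rises and 2 falls of 21. Umps, which completes uridine synthesis, rose by 0.96 ± 0.14 and Adss, of adenine nucleotide synthesis, by 0.98 ± 0.13. The purine enzyme Pfas fell from 78.6 ± 14.6 CPM in intact nerve to 28.6 ± 5.53 CPM at 7 dpi (log2 fold change -1.46 ± 0.17, adjusted p = 3.87e-06), and Paics, a neighbour in that pathway, by 0.77 ± 0.16.

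Promoters of a rising and a falling gene of this group are shown because both hold the amino acid response element spelled TGATGNAA, which was in 6 of 23 promoters of the list (26.1%) and 3.06% of those of all tested genes. Pycr1, the last enzyme of proline synthesis, rose from 6.38 ± 2.04 CPM in intact nerve to 33.5 ± 17.7 CPM at 7 dpi (log2 fold change 2.24 ± 0.31, adjusted p = 2.79e-05; chr11:120643749-120643998, minus strand), and Chac1, which breaks down glutathione, fell from 4.73 ± 0.673 CPM in intact nerve to 1.01 ± 0.388 CPM at 7 dpi (log2 fold change -2.26 ± 0.34, adjusted p = 6.11e-05; chr2:119350992-119351241, plus strand). Pycr1 had 6.90 CPM in the Kdr-Cherry libraries. Both windows are the 250 bases before a RefSeq start on GRCm38.p6, with the match on either strand in capitals.
Pycr1: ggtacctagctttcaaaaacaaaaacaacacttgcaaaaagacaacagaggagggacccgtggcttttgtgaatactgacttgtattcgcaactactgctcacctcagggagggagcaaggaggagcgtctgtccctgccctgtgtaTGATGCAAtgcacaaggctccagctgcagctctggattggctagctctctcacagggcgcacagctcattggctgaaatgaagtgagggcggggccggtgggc
Chac1: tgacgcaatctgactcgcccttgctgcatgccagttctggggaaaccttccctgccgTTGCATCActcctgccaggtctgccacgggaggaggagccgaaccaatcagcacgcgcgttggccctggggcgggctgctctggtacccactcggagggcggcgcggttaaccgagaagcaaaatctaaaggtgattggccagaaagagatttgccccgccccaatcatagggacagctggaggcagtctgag
The other 4 matches were in Asns, which rose, and in Trib3, Nupr1 and Vldlr, which fell.

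Most clock genes and most genes of the glucocorticoid response fell. Of 19 genes of the daily clock and its output, 0 rose and 15 fell (median -1.39). Hlf (chr11:90336536-90390895, minus strand), an output factor of the clock, stood at 46.9, 31.4, 28.1, 22.6 and 32.4 CPM in the intact libraries and 1.38, 1.38, 1.67, 0.752 and 1.40 CPM at 7 dpi. No library at 7 dpi came near the intact range (log2 fold change -4.61 ± 0.24, adjusted p = 1.11e-09). Its relatives Tef and Dbp fell by 2.16 ± 0.19 and 1.90 ± 0.43, but Dbp ranged from 17.6 to 107 CPM within intact nerve and 7.497 to 24.4 CPM at 7 dpi, so its groups overlapped. Batch 1133 alone gave -1.90 and batch 1292 -1.85. Arntl, a core activator, ranged from 7.21 to 64.6 CPM in uninjured nerve and 26.1 to 39.0 CPM at 7 dpi and was not called (log2 fold change -0.11 ± 0.35, adjusted p = 0.859). The hour at which nerves were taken is not given in the sources used here. With the perineurial covariate the median of the list was -0.95 with 3 falls called.

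The promoter of Ciart, a repressor of the clock, is shown as a falling gene of this list picked by its copies of the E-box spelled CACGTG. It holds 3 in the 250 bases before its start (chr3:95882229-95882478, minus strand, RefSeq on GRCm38.p6), in capitals. Copies were not counted in genes that were not called.
Ciart: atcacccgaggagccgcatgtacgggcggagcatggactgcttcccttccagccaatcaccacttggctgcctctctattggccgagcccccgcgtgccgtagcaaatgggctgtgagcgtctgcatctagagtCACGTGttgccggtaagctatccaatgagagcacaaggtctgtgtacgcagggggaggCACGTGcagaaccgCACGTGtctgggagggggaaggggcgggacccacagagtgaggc
The other E-box genes were Per1, Tef and Bhlhe41, which fell, and Cry1, which was not called. The E-box was in 5 of 16 promoters of clock genes (31.2%) and in 10.6% of those of tested genes.

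Of 24 genes of the glucocorticoid response 14 fell and 2 rose (median -0.81). The falls include the receptor itself, Nr3c1, and Hsd11b1, which activates the hormone, beside targets of the receptor. Tsc22d3 (chrX:140539528-140600659, minus strand), the glucocorticoid-induced leucine zipper, stood at 518, 615, 466, 776 and 558 CPM in the intact libraries and 116, 161, 100.1, 93.8 and 79.2 CPM at 7 dpi, with no overlap (log2 fold change -2.40 ± 0.20, adjusted p = 1.75e-07). The zinc finger factor Zbtb16 fell from 30.5 ± 15.4 CPM in intact nerve to 2.16 ± 2.41 CPM at 7 dpi (log2 fold change -4.12 ± 0.61, adjusted p = 6.12e-05) and Lcn2 by 4.58 ± 0.30. For the glucocorticoid element, 3 of 20 promoters of the list (15%) and 0.477% of those of tested genes had a match on either strand. Fkbp5, a chaperone that glucocorticoids induce in many tissues, went the other way, from 28.9 ± 4.41 CPM in intact nerve to 44.8 ± 4.999 CPM at 7 dpi (log2 fold change 0.64 ± 0.19, adjusted p = 0.0144). The median of the list was -0.80 with the perineurial covariate, where 3 falls were called, and -0.94 with the fibroblast covariate, with 14 falls. Nr3c2, the mineralocorticoid receptor, also fell, from 42.4 ± 17.99 CPM in intact nerve to 5.79 ± 2.38 CPM at 7 dpi (log2 fold change -2.83 ± 0.23, adjusted p = 1.13e-07).

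**Figure D3:**
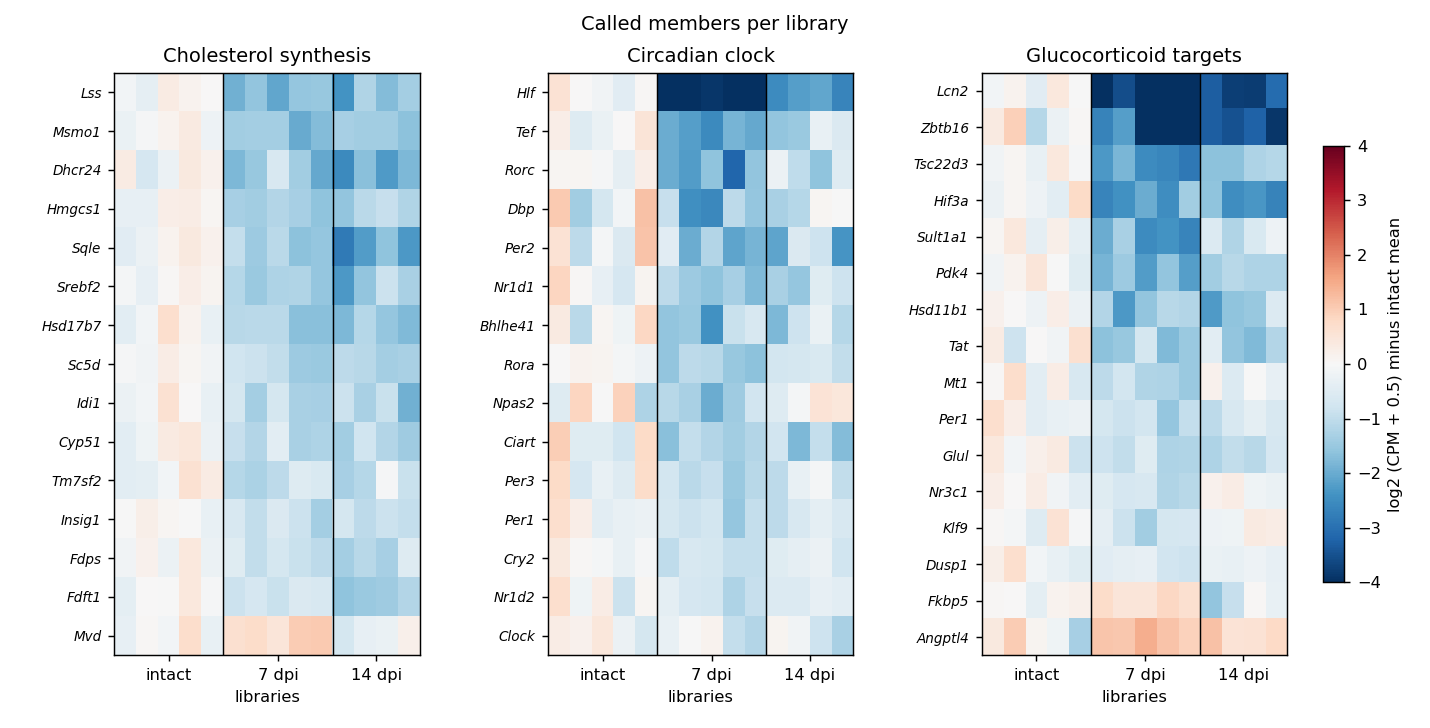
Log2 ratio of each library's CPM (plus 0.5) to the mean over intact libraries, for called genes of the cholesterol, clock and glucocorticoid lists, with the 5 intact, 5 bridge libraries at 7 dpi and 4 at 14 dpi in columns; blue is lower and red higher. Columns at 7 dpi are blue over most genes, Mvd, Fkbp5 and Angptl4 are red there, and the cholesterol genes other than Mvd are also blue at 14 dpi.

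In further transcription factor families falls outnumbered rises. Kruppel-like factors gave 1 rise and 8 falls of 16, forkhead factors 1 and 10 of 24, nuclear receptors 3 and 13 of 39, and the 355 zinc finger genes with Zfp symbols 16 and 116. Klf4, which shear stress induces in endothelium, fell from 126 ± 34.2 CPM in intact nerve to 52.2 ± 16.4 CPM at 7 dpi (log2 fold change -1.31 ± 0.17, adjusted p = 1.35e-05). Foxq1 (chr13:31556134-31560976, plus strand), which is enriched in brain endothelium, stood at 22.1, 14.8, 17.9, 16.2 and 13.3 CPM in the intact libraries and 0.102, 0.689, 0.791, 0.119 and 0.582 CPM at 7 dpi, with no overlap (log2 fold change -5.17 ± 0.41, adjusted p = 9.9e-08). Klf5 (log2 fold change -1.89 ± 0.33, adjusted p = 0.000263) had 2.44 CPM in the Kdr-Cherry libraries and a log2 fold change of 0.75 with the perineurial covariate. ETS factors, which drive endothelial genes, gave 7 rises and 2 falls of 18: Ets1 rose from 165 ± 54.7 CPM in intact nerve to 373 ± 96.1 CPM at 7 dpi (log2 fold change 1.19 ± 0.16, adjusted p = 2.48e-05) and Elk3 by 1.15 ± 0.18. Without 7 dpi replicate 1 or replicate 4, 4 ETS rises were called. Sox4 and Sox7 rose by 1.88 ± 0.22 and 1.11 ± 0.21, and Sox17 fell by 0.64 ± 0.15. Hox genes gave 3 rises and 6 falls of 29.

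Receptors that thrombin cleaves rose. F2rl3 (chr8:72761880-72763874, plus strand), protease-activated receptor 4, stood at 1.61, 0.723, 2.02, 1.46 and 2.11 CPM in the intact libraries and 28.9, 27.3, 40.8, 40.8 and 29.9 CPM at 7 dpi. Every 7 dpi library was above every intact one (log2 fold change 4.38 ± 0.24, adjusted p = 1.44e-09). F2r, the first thrombin receptor, rose from 17.5 ± 7.77 CPM in intact nerve to 86.6 ± 25.8 CPM at 7 dpi (log2 fold change 2.36 ± 0.27, adjusted p = 4.61e-06) and the protease inhibitor Tfpi2 from 2.37 ± 1.06 CPM in intact nerve to 16.3 ± 3.28 CPM at 7 dpi (log2 fold change 2.81 ± 0.24, adjusted p = 2.29e-07). F3, tissue factor, fell by 1.45 ± 0.28, with 3.45 CPM in the Kdr-Cherry libraries and a log2 fold change of 0.86 with the perineurial covariate. Of 28 genes of clotting and clot removal 12 rose and 6 fell.

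Igf1 and most imprinted growth genes rose. Igf1 (chr10:87858265-87937042, plus strand), insulin-like growth factor 1, stood at 24.1, 39.7, 27.9, 20.2 and 12.96 CPM in the intact libraries and 148.2, 195, 137, 123 and 141 CPM at 7 dpi, without overlap (log2 fold change 2.62 ± 0.19, adjusted p = 3.41e-08). Igfbp3, which binds it in blood, rose from 117 ± 60.8 CPM in intact nerve to 501 ± 92.4 CPM at 7 dpi (log2 fold change 2.14 ± 0.28, adjusted p = 1.81e-05). Of 16 genes of the system 6 rose and 4 fell. Igfbp6 (log2 fold change -2.36 ± 0.38, adjusted p = 0.000124) turned to a log2 fold change of 0.94 with the perineurial covariate. Among 20 imprinted genes 11 rose and 4 fell (median 1.11). Imprinted rises called were 7 with the fibroblast and 5 with the perineurial covariate. H19 (chr7:142575529-142578143, minus strand), an imprinted long non-coding RNA, stood at 19.2, 12.7, 32.1, 37.7 and 20.8 CPM in the intact libraries and 126, 227, 51.0, 319 and 348 CPM at 7 dpi, with no overlap (log2 fold change 2.98 ± 0.38, adjusted p = 1.52e-05). In the Kdr-Cherry libraries H19 had a mean of 11.1 CPM, below its mean in intact nerve, while Mest had 1543 CPM there and 21.1 and 1194 CPM in uninjured nerve and at 7 dpi. The neighbouring gene Igf2 rose by 2.10 ± 0.49 with overlapping groups and had 0.430 CPM in the Kdr-Cherry libraries.

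Single regulators of vessel tone changed in both directions. Of 27 vasoregulators 7 rose (25.9%) and 10 fell (37.0%). Of the better expressed genes 24.9% rose and 21.6% fell, so the rises were near that share. Nos3, endothelial nitric oxide synthase, rose from 53.1 ± 22.2 CPM in intact nerve to 111 ± 22.5 CPM at 7 dpi (log2 fold change 1.11 ± 0.19, adjusted p = 0.000234). The constrictor peptide gene Edn1 fell from 277 ± 75.6 CPM in intact nerve to 134 ± 41.8 CPM at 7 dpi (log2 fold change -1.09 ± 0.20, adjusted p = 0.000469). Sphingosine and lysophosphatidate genes, lipid signals of vessels, gave 5 rises and 4 falls of 18. The lysophosphatidate receptor Lpar4 (chrX:106920625-106933900, plus strand) stood at 10.5, 10.3, 9.14, 7.68 and 7.996 CPM in the intact libraries and 54.6, 48.3, 71.9, 66.1 and 45.8 CPM at 7 dpi, with no overlap (log2 fold change 2.66 ± 0.15, adjusted p = 2.81e-09). S1pr3 rose by 1.71 ± 0.21. S1pr1, the main sphingosine receptor of endothelium, was at 404 ± 167 CPM in intact nerve beside 456 ± 131.2 CPM at 7 dpi and was not called (log2 fold change 0.18 ± 0.20, adjusted p = 0.575). Lpar1 fell by 1.92 ± 0.32, with 2.31 CPM in the Kdr-Cherry libraries and a log2 fold change of 0.86 with the perineurial covariate. The tachykinin receptor Tacr1, which binds substance P, rose from 11.6 ± 5.02 CPM in intact nerve to 54.5 ± 9.74 CPM at 7 dpi (log2 fold change 2.28 ± 0.24, adjusted p = 1.88e-06). It belongs to a list of 15 secretory granule and neuropeptide genes with 5 rises and 3 falls, in which the granule protein Chga rose from 1.49 to 255 CPM (log2 fold change 7.46 ± 0.44, adjusted p = 3.64e-09).

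Potassium channels gave 7 rises and 20 falls of 68 (median -0.95). The median was -0.26 without intact replicate 5, -0.38 in batch 1292 alone and -0.17 with the Y-linked covariate. With the perineurial covariate it was -1.44, with 2 falls. Their summed level was 641 to 952 CPM in uninjured nerve and 266 to 326 CPM at 7 dpi. Kcnj13, an inward rectifier, fell from 313 ± 109.6 CPM in intact nerve to 16.7 ± 9.78 CPM at 7 dpi (log2 fold change -4.18 ± 0.40, adjusted p = 7.4e-07), and had 0.546 CPM in the Kdr-Cherry libraries. Calcium and TRP channels gave 6 rises and 9 falls of 44. The mechanically gated channel Piezo1 rose from 63.5 ± 10.7 CPM in intact nerve to 118 ± 36.8 CPM at 7 dpi (log2 fold change 0.89 ± 0.17, adjusted p = 0.000575), and Trpv4 fell by 1.17 ± 0.20. Ephrins and Eph receptors gave 2 rises, Ephb1 and Ephb4, and 7 falls of 21, the largest of Efnb3, also a perineurial marker (log2 fold change -3.67 ± 0.39, adjusted p = 2.1e-06; 0.449 CPM in the Kdr-Cherry libraries). The HGF receptor Met rose by 1.51 ± 0.31. Fgf7 (log2 fold change -1.66 ± 0.27, adjusted p = 0.000169), a growth factor for epithelium, had 0.609 CPM in the Kdr-Cherry libraries and a log2 fold change of 0.50 with the perineurial covariate. Connexins gave 3 rises, those of Gja4 (log2 fold change 1.03 ± 0.21, adjusted p = 0.000933), Gja5 and Gjc1 (0.59 ± 0.20; its call was lost without any 1 of 5 libraries), and 3 falls of 16. ERK feedback genes gave 5 rises and 4 falls of 19, regulators of G protein signalling 5 and 4 of 16, and adhesion receptors coupled to G proteins 4 and 2 of 24. Rgs2, which damps signals from constrictor receptors, rose from 30.6 ± 9.70 CPM in intact nerve to 102 ± 9.08 CPM at 7 dpi (log2 fold change 1.76 ± 0.18, adjusted p = 1.68e-06), and Adgrl2, latrophilin 2, by 1.34 ± 0.17.

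Most NF-kB genes rose, and most MHC class II genes fell. Of 22 subunits and feedback targets of NF-kB, the inflammatory factor, 13 rose and 0 fell (median 0.53). The perineurial covariate left 0 rises called and the fibroblast covariate 9, with medians of 0.52 and 0.58. Tnfaip3, the A20 brake on the pathway, rose from 30.99 ± 13.8 CPM in intact nerve to 107 ± 18.5 CPM at 7 dpi (log2 fold change 1.84 ± 0.25, adjusted p = 2.64e-05). Cd40, a receptor for T cell help, rose from 4.86 ± 1.47 CPM in intact nerve to 19.7 ± 6.94 CPM at 7 dpi (log2 fold change 1.98 ± 0.23, adjusted p = 6.02e-06), and Nfkb2 by 0.81 ± 0.14. Chemokine ligands gave 9 rises and 3 falls of 22, and the 4 rises of largest fold, Cxcl2, Cxcl5, Ccl8 and Cxcl14, ended at means under 10 CPM. Cxcl2 went from 0.280 to 5.88 CPM (log2 fold change 4.49 ± 0.57, adjusted p = 1.37e-05). Cxcl12 (chr6:117168535-117181367, plus strand), which guides cells with the receptor Cxcr4, stood at 2171, 2252, 1956, 1640.2 and 1575 CPM in the intact libraries and 922, 809, 1132, 459 and 519 CPM at 7 dpi (log2 fold change -1.37 ± 0.16, adjusted p = 5.4e-06). The 2 groups of Cxcl12 did not overlap, and Cx3cl1, a membrane-bound chemokine, fell by 1.36 ± 0.19. Complement genes gave 4 rises and 9 falls of 24.

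The summed level of MHC class II genes was 45.4 to 214 CPM in uninjured nerve and 10.8 to 36.4 CPM at 7 dpi, and 7 of 9 fell. Without 7 dpi replicate 3, 4 were called lower and the call of H2-Aa was lost (log2 fold change -3.97). The median of the class II genes was -0.90 in batch 1133 and -2.42 in batch 1292. H2-Aa (chr17:34282744-34287823, minus strand), a chain of the class II pair, stood at 37.0, 14.8, 9.33, 5.71 and 5.73 CPM in the intact libraries and 0.256, 0.639, 0.292, 5.02 and 1.05 CPM at 7 dpi (log2 fold change -4.27 ± 1.18, adjusted p = 0.0138). Every 7 dpi library was below every intact one, and the highest 7 dpi value was in replicate 4, the library with the highest macrophage sum. Ctss (chr3:95526786-95556403, plus strand), a protease that trims the class II chaperone, was at 0, 0.103, 0.152, 0.204 and 0.296 CPM in the intact libraries and 1.89, 0.590, 2.46, 40.4 and 2.59 CPM at 7 dpi (log2 fold change 6.18 ± 1.62, adjusted p = 0.0113). Its highest value was in the same library, and Ctss is itself one of the macrophage markers. Without that library its log2 fold change was 5.31, and its call was lost without intact replicate 4 (log2 fold change 5.59). The part of macrophages in either gene was not tested. Of 12 cathepsins 6 rose and 3 fell. Ctsl, which was 938 CPM in the Kdr-Cherry libraries, rose from 393 ± 73.8 CPM in intact nerve to 834 ± 50.2 CPM at 7 dpi (log2 fold change 1.08 ± 0.15, adjusted p = 2.9e-05).

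B7 family and checkpoint ligands, which tune T cells, gave 4 rises and 3 falls of 12. Cd276 (chr9:58524298-58555437, minus strand) (B7-H3) stood at 2.42, 3.56, 1.87, 2.48 and 1.51 CPM in the intact libraries and 178, 136, 260.1, 229 and 189.7 CPM at 7 dpi (log2 fold change 6.40 ± 0.26, adjusted p = 1.97e-10). Lgals9, galectin 9, rose from 312 ± 90.2 CPM in intact nerve to 696 ± 70.0 CPM at 7 dpi (log2 fold change 1.16 ± 0.19, adjusted p = 0.000136). Cd274 (PD-L1) fell from 26.1 ± 9.61 CPM in intact nerve to 5.93 ± 2.58 CPM at 7 dpi (log2 fold change -2.16 ± 0.17, adjusted p = 1.13e-07) and Icosl by 1.61 ± 0.21. In the Kdr-Cherry libraries Cd276 had 232 and Cd274 5.76 CPM, beside 7 dpi means of 199 and 5.93 CPM in the Tomato libraries.

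Most glutathione S-transferases and many aldehyde dehydrogenases fell. Of 21 glutathione S-transferases, which attach glutathione to reactive compounds, 15 fell and 2 rose (median -1.08), and of 18 aldehyde dehydrogenases 9 fell and 2 rose (median -0.80). The median of the dehydrogenases was -0.46 without 7 dpi replicate 1 or replicate 3 and -0.48 without intact replicate 2, each a fit that tested 1 more gene of the list, and -0.50 with a stricter count filter. With the perineurial covariate it was -0.24, with 2 falls. Gstm1 (chr3:108012255-108017973, minus strand) stood at 422, 428, 394, 590.0 and 405 CPM in the intact libraries and 62.97, 85.4, 51.6, 74.3 and 66.1 CPM at 7 dpi, with no overlap (log2 fold change -2.71 ± 0.17, adjusted p = 4.91e-09). Gstm7 fell from 81.5 ± 24.9 CPM in intact nerve to 7.495 ± 1.66 CPM at 7 dpi (log2 fold change -3.44 ± 0.22, adjusted p = 8.63e-09). Aldh1a1, a retinal dehydrogenase, fell from 64.8 ± 26.4 CPM in intact nerve to 2.497 ± 1.501 CPM at 7 dpi (log2 fold change -4.74 ± 0.35, adjusted p = 4.41e-08). Gsto1 rose from 40.1 ± 6.30 CPM in intact nerve to 142 ± 8.51 CPM at 7 dpi (log2 fold change 1.82 ± 0.13, adjusted p = 3.3e-08). With the perineurial markers as a covariate the median of the transferases was -0.21 with 2 falls called, and that of the dehydrogenases -0.24 with 2. Single members differed: Gsta4 went from -2.71 to -0.29 and had 2.22 CPM in the Kdr-Cherry libraries, while Gstm1 went to -2.06 and had 44.4 CPM. Cytochrome P450 genes gave 5 rises and 10 falls of 34.

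Oxidative stress genes gave 7 rises and 4 falls of 26. Hmox1, heme oxygenase, rose from 19.8 ± 6.56 CPM in intact nerve to 60.1 ± 9.31 CPM at 7 dpi (log2 fold change 1.63 ± 0.18, adjusted p = 2.31e-06). Thioredoxin reductase, Txnrd1, rose by 1.10 ± 0.15, while Osgin1 fell from 56.6 ± 11.2 CPM in intact nerve to 11.2 ± 2.55 CPM at 7 dpi (log2 fold change -2.34 ± 0.15, adjusted p = 9.18e-09). The factor that controls several of them, Nfe2l2, had 163 ± 31.8 CPM in intact nerve beside 182 ± 20.5 CPM at 7 dpi and was not called (log2 fold change 0.17 ± 0.14, adjusted p = 0.405). Nox4 (chr7:87246649-87398710, plus strand), an oxidase that makes hydrogen peroxide, stood at 3.05, 1.498, 2.06, 1.46 and 2.80 CPM in the intact libraries and 72.9, 63.5, 103, 88.4 and 74.3 CPM at 7 dpi (log2 fold change 5.20 ± 0.25, adjusted p = 4.68e-10). No intact library came near the 7 dpi range. Genes of the p53 response and of cell death gave 13 rises and 7 falls of 30. Pmaip1, which promotes cell death, rose by 3.04 ± 0.34. The death receptor gene Fas and the survival gene Bcl2l1 fell by 2.5 ± 0.23 and 1.57 ± 0.15.

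Genes of caveolae, fenestrae and transcytosis gave 4 rises and 9 falls of 19. Plvap, the diaphragm protein of fenestrae, rose from 916 ± 625 CPM in intact nerve to 2636 ± 519.9 CPM at 7 dpi (log2 fold change 1.64 ± 0.29, adjusted p = 0.000372). Mfsd2a, which limits transcytosis at barriers, fell from 377 ± 64.0 CPM in intact nerve to 13.6 ± 10.8 CPM at 7 dpi (log2 fold change -4.92 ± 0.47, adjusted p = 5.8e-07). Cav1, the coat of caveolae, had 3546 ± 616 CPM in intact nerve beside 3457 ± 678 CPM at 7 dpi and was not called (log2 fold change -0.05 ± 0.16, adjusted p = 0.854). Carriers of glucose, nucleosides and monocarboxylates gave 5 rises and 6 falls of 29. Slc16a4 fell from 143 ± 28.8 CPM in intact nerve to 13.9 ± 3.81 CPM at 7 dpi (log2 fold change -3.33 ± 0.23, adjusted p = 2.05e-08) and its relative Slc16a6 rose from 3.03 ± 0.785 CPM in intact nerve to 15.1 ± 2.91 CPM at 7 dpi (log2 fold change 2.31 ± 0.20, adjusted p = 2.47e-07). Carbonic anhydrases, which interconvert carbon dioxide and bicarbonate, gave 3 rises and 4 falls of 12. The cytosolic enzyme Car2 rose from 6.26 ± 0.400 CPM in intact nerve to 58.9 ± 16.8 CPM at 7 dpi (log2 fold change 3.20 ± 0.21, adjusted p = 9.73e-09). Car4, which is anchored on the outer face of the cell, fell from 551 to 10.7 CPM (log2 fold change -5.72 ± 0.37, adjusted p = 9.81e-09). Tetraspanins, which organise membrane proteins, gave 9 rises, among them Tspan18 (log2 fold change 2.25 ± 0.28, adjusted p = 1.03e-05) and Tspan6 (log2 fold change 1.77 ± 0.14, adjusted p = 8.8e-08), and 3 falls of 19. Iron handling gave 5 rises and 7 falls of 18. Fth1, the heavy chain of the iron store ferritin, fell from 3471 ± 678 CPM in intact nerve to 1742 ± 192 CPM at 7 dpi (log2 fold change -0.99 ± 0.16, adjusted p = 0.000108). Slc40a1, the iron exporter, rose by 1.87 ± 0.32. Metal carriers and metallothioneins gave 3 rises and 7 falls of 22, with the zinc importer Slc39a10 down from 199 ± 81.7 CPM in intact nerve to 75.6 ± 28.1 CPM at 7 dpi (log2 fold change -1.36 ± 0.13, adjusted p = 5.85e-07). Annexins and S100 proteins, which bind calcium, gave 6 and 4 of 18. Anxa1 rose by 1.22 ± 0.17 and S100a11 by 1.65 ± 0.20. Of 5 aquaporins 2 fell, Aqp11 and Aqp7. Genes that make and carry heparan sulfate, the sugar coat of vessels, gave 4 rises and 10 falls of 28. The core protein perlecan, Hspg2, rose from 121 ± 34.2 CPM in intact nerve to 374 ± 87.0 CPM at 7 dpi (log2 fold change 1.64 ± 0.19, adjusted p = 4.03e-06), and syndecan 4, Sdc4, fell by 2.62 ± 0.28 with 14.8 CPM in the Kdr-Cherry libraries and a log2 fold change of -0.34 with the perineurial covariate.

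Libraries at 14 dpi were compared directly with those at 7 dpi in the same model, a comparison that shares its 7 dpi libraries with the one above. Of all tested genes 1170 (5.73%) were higher and 857 (4.20%) lower at 14 than at 7 dpi. Without 14 dpi replicate 2 there were 518 falls, and without replicate 3 762 rises. Of the ribosome biogenesis genes 12 of 40 were lower, of the Zfp genes 29 were higher and 2 lower, and of the clock genes 5 were higher. Mest stood at 120.5, 208, 184 and 253 CPM in the 4 libraries at 14 dpi and was lower than at 7 dpi (log2 fold change of 14 over 7 dpi -2.66 ± 0.24, adjusted p = 1.45e-05), and Nox4 likewise (log2 fold change of 14 over 7 dpi -1.78 ± 0.22, adjusted p = 0.000129). Hlf was higher at 14 than at 7 dpi (log2 fold change of 14 over 7 dpi 2.18 ± 0.24, adjusted p = 3.77e-05), with a mean of 5.79 CPM against 32.3 in intact nerve. Of the 25 cholesterol genes 0 were higher and 3 lower at 14 dpi. Hmgcs1 had 39.5, 55.5, 62.2 and 51.6 CPM in the 4 libraries at 14 dpi (log2 fold change of 14 over 7 dpi 0.16 ± 0.16, adjusted p = 0.676), with each library below the lowest intact value, 95.3 CPM. At the same time the fibroblast marker Dcn, 9687 CPM in uninjured nerve and 3560.4 CPM at 7 dpi, had a mean of 10153 CPM at 14 dpi (log2 fold change of 14 over 7 dpi 1.47 ± 0.34, adjusted p = 0.0118). Fkbp5 was lower at 14 than at 7 dpi (log2 fold change of 14 over 7 dpi -1.34 ± 0.21, adjusted p = 0.000709).

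**Figure D4:**
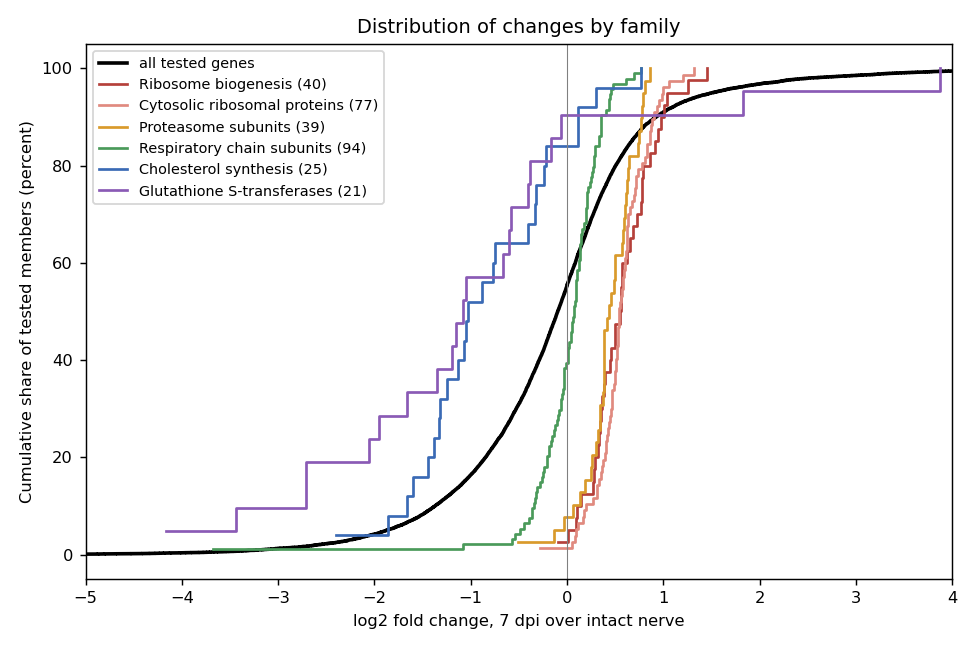
Cumulative share of tested members by log2 fold change of 7 dpi over intact nerve, for 6 families and for all 20409 tested genes; a curve to the right means more genes with higher RNA at 7 dpi. Ribosome biogenesis, ribosomal proteins and proteasome mostly lie to the right of all genes, respiratory chain is narrow around 0, and cholesterol synthesis and glutathione transferases to the left.

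Of the 69 families 16 had at least 50% of their tested members called in 1 direction. Of these, ribosome biogenesis, tRNA synthetases, initiation factors, proteasome, cathepsins, collagen modification, actin, imprinted and NF-kB genes rose, and cholesterol, Kruppel-like, clock, glucocorticoid, MHC class II, glutathione transferase and aldehyde dehydrogenase genes fell. Under the perineurial covariate 0 families and under the fibroblast covariate 3 reached that share. The perineurial sums of the groups did not overlap, so in that model the covariate and the group can hardly be told apart.

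**Figure D5:**
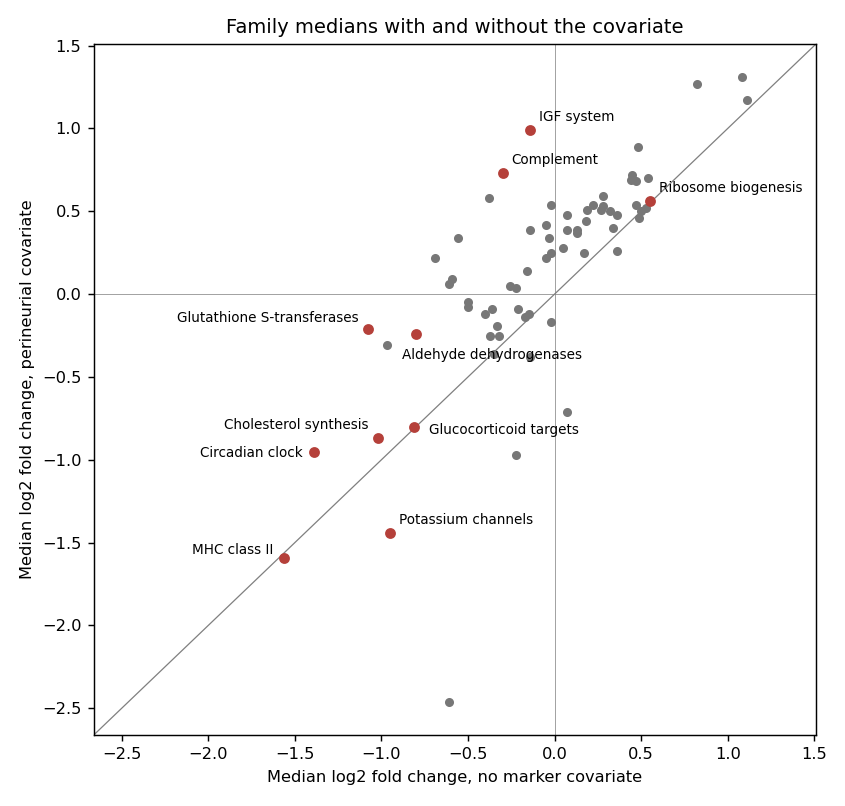
Median log2 fold change of each of the 69 families in the model without a marker covariate (horizontal axis) and with the mean of the perineurial markers as a covariate (vertical axis); the diagonal marks equal values. Cholesterol, glucocorticoid and MHC class II lists lie near the diagonal, complement and IGF lists pass from below to above 0, and glutathione transferases and aldehyde dehydrogenases lie closer to 0 with the covariate.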

How the data were processed

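RNA of sorted nerve endothelial cells was measured in 20 libraries, of which 10 were compared. The authors deposited raw counts of reads per gene for the Tomato libraries and, separately, for the Kdr-Cherry libraries. Per the submitters' processing notes, Trimmomatic 0.39, STAR 2.5.3a, featureCounts 1.6.4 and Cell Ranger 3.0.2 were named, with mm10 (GRCm38); their order, the annotation and the strand setting were not stated, so overlapping and antisense genes cannot be told apart. A table corrected for batch by ComBat-seq was not used.

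The 14 Tomato libraries were fitted together in edgeR 4.0.16 (R 4.3.3): filterByExpr, TMM, quasi-likelihood with group and batch, Benjamini-Hochberg over 20409 genes, called at an adjusted p under 0.05. CPM used effective library sizes. On simulated counts for this comparison (19534 genes tested) the fit recovered 62% of 100 genes changed 2-fold and 92% of 100 changed 4-fold, and called 0.0207% of unchanged genes. The simulation changed far fewer genes than were called in the data. It held no difference between batches or in cell content, so these shares need not hold for the data. No 2 libraries of a group held identical counts.

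The members and the 69 gene lists were chosen with earlier results of these data known, and lists are described by counts and medians without a set test. Genes named with values were the 12 rises and 12 falls of largest fold at an average log2 CPM of at least 3, the 10 largest gains and losses of CPM, per list up to 4 called members in each direction and its first 2 symbols, and cell type markers, of which a few are not reported here; genes named without values were chosen after their values were seen. Alternatives were RLE or library-size scaling, DESeq2 1.42.0, other count filters, the 10 libraries alone, no batch term, each batch alone, marker or Y-linked covariates, glmTreat and leaving out each library. Promoters were matched by symbol to RefSeq windows on GRCm38.p6.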

Additional observations from a re-analysis of the deposited data

Results flagged for a closer look

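For each gene named with values, the libraries of intact nerve, 7 dpi and 14 dpi were searched for 1 library far from the rest of its group (Dixon's criterion at 95%). Chance gives such a library in about 1 in 20 groups, and 36 of 618 were found. In replicate 1 of 7 dpi, values far above the rest were those of Adm at 57.5 CPM (others 43.2 to 46.8). In replicate 2 of 7 dpi, values far above the rest were those of Gstm7 at 10.4 CPM (others 6.25 to 7.36) and Lcn2 at 13.7 CPM (others 4.45 to 6.70). In replicate 3 of 7 dpi, values far above the rest were those of Tspan18 at 386 CPM (others 186 to 239.6). Replicate 3 of 7 dpi also had, far below the rest, F3 at 13.3 CPM (others 42.1 to 51.5) and Sdc4 at 31.2 CPM (others 96.9 to 108). In replicate 4 of 7 dpi, values far above the rest were those of Birc5 at 128 CPM (others 106 to 112), Cct2 at 336 CPM (others 261 to 276), Ctss at 40.4 CPM (others 0.590 to 2.59) and H2-Aa at 5.02 CPM (others 0.256 to 1.05). Replicate 4 of 7 dpi also had, far above the rest, Mmp12 at 26.2 CPM (others 0 to 1.42).

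In replicate 2 of intact nerve, values far above the rest were those of Mfap4 at 0.981 CPM (others 0 to 0.272) and S1pr3 at 31.1 CPM (others 14.3 to 17.98). In replicate 4 of intact nerve, values far above the rest were those of Cst3 at 4567 CPM (others 2358 to 2866), Gstm1 at 590.0 CPM (others 394 to 428) and Vim at 2568 CPM (others 1822 to 1872). In replicate 5 of intact nerve, values far above the rest were those of Ccl8 at 0.494 CPM (others 0 to 0.103) and Slc38a1 at 6.68 CPM (others 1.02 to 1.601). Replicate 5 of intact nerve also had, far below the rest, Eef1a1 at 2380.0 CPM (others 3793 to 4158), Ndrg1 at 1249 CPM (others 1631 to 1724), Npm1 at 177 CPM (others 285 to 309) and Pkm at 389 CPM (others 531 to 579.8).

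In replicate 1 of 14 dpi, values far above the rest were those of Anxa1 at 466 CPM (others 328 to 349) and Chac1 at 2.29 CPM (others 0.782 to 0.945). Replicate 1 of 14 dpi also had, far below the rest, Mthfd2 at 6.59 CPM (others 8.90 to 8.997). In replicate 2 of 14 dpi, values far above the rest were those of Ets1 at 290.4 CPM (others 226 to 232). In replicate 3 of 14 dpi, values far above the rest were those of Ccl8 at 18.4 CPM (others 0.680 to 2.87), Ctss at 188 CPM (others 0.779 to 4.92), Cxcl2 at 10.4 CPM (others 1.66 to 1.92) and H2-Aa at 46.6 CPM (others 1.70 to 5.63). Replicate 3 of 14 dpi also had, far above the rest, Mmp12 at 115 CPM (others 0.312 to 0.680). Its macrophage markers, Ctss among them, summed to 1342 CPM, beside 19.8 to 47.7 CPM in the other libraries at 14 dpi. The part of macrophages in these values was not tested. Replicate 3 of 14 dpi also had, far below the rest, Nox4 at 15.5 CPM (others 24.9 to 26.6). In replicate 4 of 14 dpi, values far above the rest were those of Paics at 514 CPM (others 345 to 373), Pgk1 at 64.8 CPM (others 47.3 to 48.8), Pkm at 595 CPM (others 445 to 468) and Psmc4 at 192 CPM (others 159 to 164).

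Genes called in opposite directions against intact nerve at the 2 time points, and called between them, were also collected. The 2 comparisons share the intact libraries, and the direct test is that of 14 against 7 dpi. Only 1 gene was higher at 7 dpi and lower at 14 dpi: Fkbp5 had log2 fold changes of 0.64 at 7 dpi and -0.70 at 14 dpi over intact nerve, and of -1.34 between 14 and 7 dpi (edgeR adjusted p = 0.000709). There were 9 genes lower at 7 dpi and higher at 14 dpi, among them C1qtnf9, Rbp7 and several known from myelin, such as Mag and Egr2. Mag had log2 fold changes of -1.87 at 7 dpi and 2.23 at 14 dpi over intact nerve, and of 4.09 between 14 and 7 dpi (edgeR adjusted p = 0.000116). Rbp7 had log2 fold changes of -0.93 at 7 dpi and 0.88 at 14 dpi over intact nerve, and of 1.81 between 14 and 7 dpi (edgeR adjusted p = 0.000504). C1qtnf9 had log2 fold changes of -0.42 at 7 dpi and 0.49 at 14 dpi over intact nerve, and of 0.91 between 14 and 7 dpi (edgeR adjusted p = 0.00139). Schwann cell markers summed to 632 to 1098 CPM in intact nerve, 203 to 303 CPM at 7 dpi and 766 to 2662 CPM at 14 dpi, and their part in these genes was not tested.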

How the results depend on the processing

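The 6535 genes called between 7 dpi and intact nerve stayed close to that number, within 1.5 times, under RLE or library-size scaling, DESeq2, both other count filters, the 10 libraries alone, no batch term and batch 1292 alone. They fell to 2042 in batch 1133 alone (1116 higher, 926 lower; 2 libraries a group), to 674 with the perineurial covariate (474 higher, 200 lower), to 4352 with the fibroblast covariate (1987 higher) and to 4136 with the summed Y-linked RNA as covariate (1877 higher). The share of calls that were higher was 49.0%, and 70.3% with the perineurial covariate. The median of all genes lay between -0.27 and 0.04 under the settings run. Genes changed at least 2-fold numbered 3239, 1498 when the fold itself was tested with glmTreat, 2038 in batch 1133 alone and 674 with the perineurial covariate. The 16 families with at least 50% of members called 1 way became 10 without a count filter, 27 with a stricter one, 0 in batch 1133 alone, 0 with the perineurial, 3 with the fibroblast and 7 with the Y-linked covariate. Between 14 and 7 dpi 2027 genes became 3255 with DESeq2 (1555 lower) and 1226 without the batch term (697 higher, 529 lower). Apart from the smaller samples and the added covariates, the cause of these changes was not tested. Leaving out 1 library at a time gave 5808 to 6748 genes (2724 to 3273 higher, 2962 to 3578 lower), 2978 to 3345 changed at least 2-fold, 14 to 21 families, and 1305 to 1901 genes between 14 and 7 dpi (762 to 1142 higher, 518 to 911 lower). Of 198 named genes called, 5 lost the call without some library: Ctss, Gjc1, H2-Aa, Hsp90b1 and Mmp12. Other settings cost more calls. Of the 206 named genes tested, 112 kept their direction but lost the call with the perineurial covariate. The same held for 46 in batch 1133 alone, 14 with the Y-linked covariate and 12 with the fibroblast covariate. Beyond those in the text, leaving out 1 library moved counts of at least 5 by over 1.5 times as follows: fatty acid oxidation falls from 5 to 3 (without intact replicate 1), ERK feedback rises from 5 to 3 (without intact replicate 1 or 7 dpi replicate 1 or 7 dpi replicate 3 or 7 dpi replicate 4), potassium channels rises from 7 to 4 (without intact replicate 3) and to 3 (without 7 dpi replicate 4), iron handling rises from 5 to 3 (without intact replicate 1 or intact replicate 4 or 7 dpi replicate 4 or intact replicate 5 or 7 dpi replicate 5), glucose, nucleoside and monocarboxylate carrier rises from 5 to 8 (without intact replicate 2). The direction of 14 named genes turned with the perineurial covariate, with log2 fold changes of Dcn 1.32, Dnajc3 0.01, F3 0.86, Fgf7 0.50, Gjc1 -0.04, Gsn 0.48, Igfbp6 0.94, Klf5 0.75, Lamb3 1.33, Lpar1 0.86, Nupr1 0.51, Sfrp5 0.17, Slc16a1 0.93, Smoc2 1.44; no other setting turned a called named gene. Low counts limit the genes under about 1 CPM, whose fold changes depend on few reads. No paired analysis was possible because no label ties libraries of different groups to 1 animal, litter or day, and the replicate numbers follow accession order alone.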

Other observations

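Classes of transcript beyond protein-coding genes differed in their counts. Of antisense RNAs 28 of 890 rose and 78 fell (median -0.33), of processed transcripts 27 of 343 rose and 49 fell (median -0.36), and of processed pseudogenes 36 of 900 rose and 22 fell (median 0.05). Without a known strand setting, reads of an antisense RNA and of its partner cannot be told apart, and reads of a pseudogene may belong to its parent gene.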
